A study of Homo sapiens with 32 samples.

Results

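CRH and SPX encode neuropeptide precursors, and their RNA was read on arrays from human lung cancer lines in which the chromatin remodelling ATPase SMARCA2 had been knocked down. The genes were found by annotation symbol (SPX under its older name C12orf39 as well), which gave 2 of 19775 genes and 4 of 54675 probe sets. A probe set is a group of short probes that reads 1 transcript end. CRH is read by 205630_at and 205629_s_at, and SPX by 229778_at and 221067_s_at. Both were selected on the size of their measured change in H1299, mainly between the SMARCA2 hairpin and its control: between the hairpin groups expressing GFP, CRH had the second-largest rise among 14695 genes tested and SPX the fifth-largest fall. Their levels and differences in H1299 are therefore given as a description, with no test.

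The cell lines were H1299 and A549, both known to lack functional SMARCA4, which with SMARCA2 forms the pair of alternative ATPases of SWI/SNF complexes. All cells carried a stable short hairpin RNA, either shLuc, aimed at luciferase, or S2sh7, aimed at the ATPase domain of SMARCA2. On top of the hairpin, H1299 expressed GFP or SMARCA2 cDNA in its wild-type form (WT), with a mutated bromodomain (BRD) or with a dead ATPase (ATPdead), and A549 expressed GFP or the same forms of SMARCA4. This made 8 groups of 3 arrays in H1299, labelled as biological replicates, and 8 groups of 1 array in A549. Every line was a stable line without further treatment. The labels do not say whether a line was 1 clone or a pool, or whether replicates came from separate cultures. A p-value in H1299 therefore reflects the spread among arrays, which may be technical. In A549, with 1 array per group, it reflects how far the cDNA lines depart from a shared hairpin effect. Different cDNA lines thus serve as replicates there. The labels' batch field differs between the cell lines, so line and batch cannot be told apart.

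CRH, corticotropin-releasing hormone, is made in the hypothalamus and placenta, acts through the receptors CRHR1 and CRHR2 and starts the hormonal stress response by driving pituitary release of hormone from the precursor POMC. Spexin, the product of SPX, is a peptide related to galanin and kisspeptin that acts on the galanin receptors GALR2 and GALR3 and is known for effects on feeding and metabolism. Both are made as longer precursors that convertases cut and that PAM can amidate. Lung carcinoma cells are not their usual source, although tumours can make peptide hormones outside their normal tissue.

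The promoter window of SPX is shown because SPX lost signal with the hairpin in both cell lines. In RefSeq (GRCh38.p14) the window is chr12:21527702-21528001 on the plus strand, 250 bases before to 50 after a listed start. That start lies 1656 bases after the first base of SPX in the RefSeq gene table, so a start at that first base is not covered. Capitals mark the GC box GGGCGG, on either strand, a motif bound by SP1-type factors.
SPX: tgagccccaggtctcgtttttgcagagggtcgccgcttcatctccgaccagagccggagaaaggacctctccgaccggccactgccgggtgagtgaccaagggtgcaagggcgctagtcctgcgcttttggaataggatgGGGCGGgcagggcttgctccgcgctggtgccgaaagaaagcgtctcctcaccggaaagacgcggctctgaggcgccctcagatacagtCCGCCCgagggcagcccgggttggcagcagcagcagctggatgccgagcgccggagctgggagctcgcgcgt
The window is 66.3% G and C and holds 28 CG pairs, against a median of 14.0 over 35116 RefSeq promoters, of which 26.2% hold as many. Its GC boxes begin at base -110 on the plus strand and at base -22 on the minus strand, and 45.0% of all promoters hold at least 1. The letters of the cAMP response element TGACGTCA (in 1.85% of promoters) and of the AP-1 site TGANTCA (7.71%) are not in this window on either strand. CRH was not among the promoters matched, so 1 of the 2 genes is shown.

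The hairpin lowered its target. Of the 5 SMARCA2 probe sets tested, 4 fell in both lines, and 212258_s_at did not (-0.11 log2 in H1299 with GFP, 0.0002 in A549). The SMARCA4 probe sets tested ran from -0.68 (213720_s_at) to 0.04 (212520_s_at) in H1299 with GFP, with 208794_s_at at -0.60. In A549, 213720_s_at gave 0.06 and 208794_s_at 0.23. A SMARCA2 probe set that did not rise with the cDNAs was 206542_s_at. In H1299 with S2sh7 it stood at log2 4.84, 4.75, 4.89 and 5.00 with GFP, WT, BRD and ATPdead. In A549 with S2sh7 it stood at 5.02, 5.06, 5.08 and 5.17 in the same order. On 212257_s_at, which rose with the cDNAs, the H1299 groups with S2sh7 read 4.64, 6.25, 6.06 and 5.82 in that order. On 206544_x_at, which rose less, they read 4.33, 4.97, 4.84 and 4.96. The part of cDNA level in the H1299 differences was not tested. The median intensity of an array ran from 26.4 to 27.3 units for H1299 and from 40.1 to 41.2 for A549, and the lines were fitted separately, with no level compared between them. Of 6 epithelial markers, 3 were above log2 5 on all H1299 arrays and 5 on all A549 arrays; EPCAM and CDH1 stayed at or below 3.11 and 2.63 in H1299. Of 7 leukocyte and endothelial genes, 4 were above log2 5 on all A549 arrays and 1 on all H1299 arrays. PTPRC (leukocyte) and CDH5 (endothelial) did not pass log2 5 on any array, while CD14 (leukocyte) reached 6.98 in A549. In bulk samples like these, fewer cells with a transcript and less RNA per cell cannot be told apart.

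CRH stood far higher with S2sh7 than with shLuc in each H1299 line. On 205630_at, the brighter of its probe sets, the shLuc arrays with GFP read log2 6.08, 6.01 and 6.25 and the S2sh7 arrays 9.08, 9.15 and 9.14. In intensity this was 69.5 ± 5.98 against 557 ± 14.5 (SD, n = 3 each), or 8.03-fold. With WT SMARCA2 the shLuc arrays read log2 5.79, 5.73 and 5.52 and the S2sh7 arrays 7.77, 7.76 and 7.80. The gap was smaller there, 2.10 log2 (SE 0.067) against 3.01 (SE 0.067) with GFP.

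With BRD the shLuc arrays read log2 5.60, 5.57 and 5.58 and the S2sh7 arrays 7.94, 8.06 and 7.95, a gap of 2.40 log2 (SE 0.067). With ATPdead they read 5.86, 5.68 and 5.84 against 8.52, 8.40 and 8.38, a gap of 2.64 log2 (SE 0.067). In none of the 4 lines did the hairpin groups overlap on 205630_at; limma called 13.6%, 14.9%, 11.1% and 16.5% of all genes higher with S2sh7 there (GFP, WT, BRD, ATPdead). The gap with WT, BRD and ATPdead was 69.8%, 79.8% and 87.8% of that with GFP on the log2 scale, and all 3 differences from GFP rest on the same GFP arrays.

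**Figure D1:**
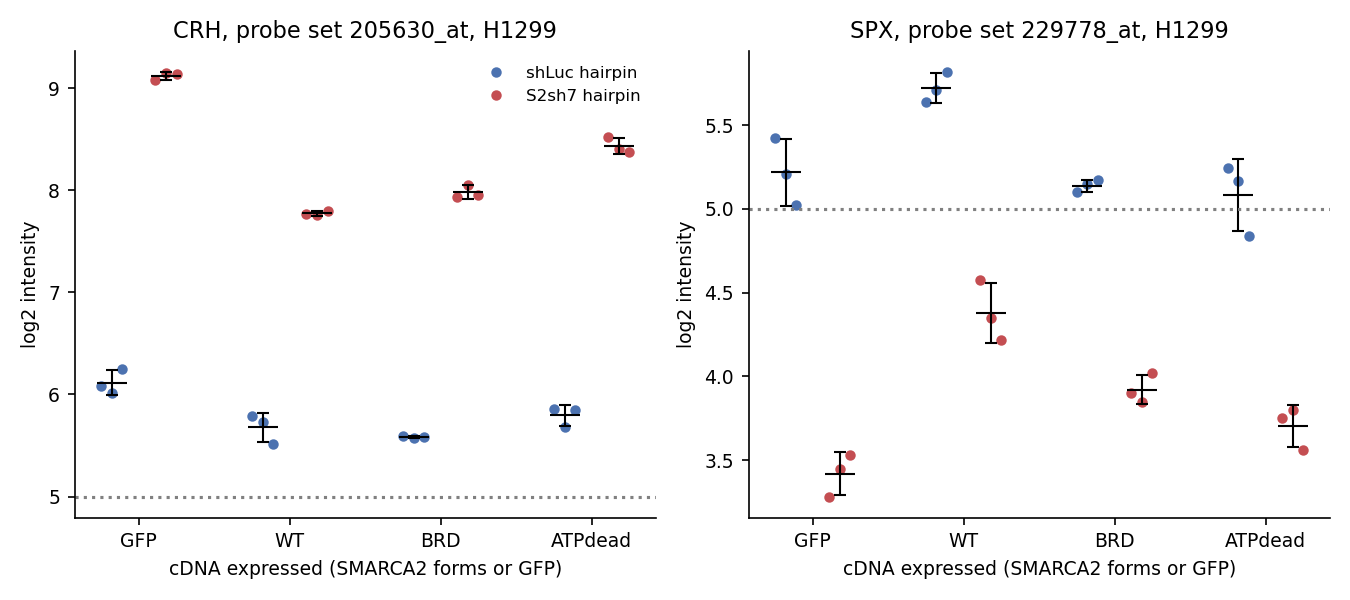
log2 intensity of the main CRH and SPX probe sets on each H1299 array (points; blue shLuc, red S2sh7) for 4 cDNAs, with mean and SD (bars, n = 3) and a dotted line at log2 5. CRH with S2sh7 lies at 7.76 or above on all arrays and with shLuc at 6.25 or below, while SPX with S2sh7 lies at 4.57 or below and with shLuc at 4.84 or above.

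Ordered by mean, CRH in H1299 ran from S2sh7 with GFP (log2 9.12), through S2sh7 with ATPdead (8.43), BRD (7.98) and WT (7.78), to shLuc with GFP (6.11), ATPdead (5.79), WT (5.68) and BRD (5.58). With S2sh7 no neighbours in that order overlapped, though the step from BRD to WT was only 0.21 log2. How many of all genes have groups separated like this is not given here. With shLuc the GFP arrays lay above all others, and ATPdead, WT and BRD were not separated from their neighbours. Against GFP, CRH with S2sh7 was lower by 1.34 log2 with WT (estimate -1.34, SE 0.067), by 1.14 with BRD (-1.14) and by 0.69 with ATPdead (-0.69). With shLuc the same differences were -0.44, -0.53 and -0.32.

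ATPdead was also set against BRD, on arrays that belong to the H1299 values behind the choice of CRH, so these differences too are a description. With S2sh7, CRH was 0.45 log2 higher with ATPdead than with BRD (SE 0.067), in a contrast that called 2.89% of genes, with 1.69% higher. On 205629_s_at the difference was 0.11 (SE 0.13). With shLuc the difference was 0.21 (95% confidence interval 0.07 to 0.35, 0.401% of genes called). The difference between the ATPdead and BRD hairpin gaps was 0.24 (interval 0.04 to 0.44, 0.0612% called).

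SPX moved the opposite way. On 229778_at the H1299 shLuc arrays with GFP read log2 5.42, 5.21 and 5.03 and the S2sh7 arrays 3.28, 3.45 and 3.53. In intensity this was 37.5 ± 5.21 against 10.7 ± 0.928 (SD, n = 3 each). All S2sh7 arrays were below the log2 5 used as the filter on dim genes, so the size of the fall is not well measured there. With WT the shLuc arrays read 5.64, 5.71 and 5.82 and the S2sh7 arrays 4.57, 4.35 and 4.21. The log2 gap was -1.80 (SE 0.11) with GFP and -1.34 (SE 0.11) with WT.

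The BRD and ATPdead lines gave the same direction, again as a description. With BRD the shLuc arrays read log2 5.10, 5.15 and 5.17 and the S2sh7 arrays 3.90, 3.85 and 4.02, a log2 gap of -1.22 (SE 0.11). With ATPdead they read 5.24, 5.17 and 4.84 against 3.75, 3.80 and 3.56, a log2 gap of -1.38 (SE 0.11). In these contrasts 12.7% and 11.9% of genes were called lower (16.1% with GFP and 11.6% with WT), and SPX had the eighth-largest and the seventh-largest fall. The hairpin groups did not overlap in any of the 4 lines.

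Ordered by mean, SPX in H1299 was highest in shLuc with WT (log2 5.72), followed by shLuc with GFP (5.22), BRD (5.14) and ATPdead (5.08), which were not separated from their neighbours. The S2sh7 groups followed in the order WT (4.38), BRD (3.92), ATPdead (3.70) and GFP (3.42), with no overlap between neighbours. Again, the share of all genes with such groups is not given. WT against GFP was 0.50 log2 with shLuc and 0.96 with S2sh7. BRD against GFP was -0.08 and 0.50, and ATPdead against GFP -0.13 and 0.28. ATPdead against BRD was -0.05 with shLuc (interval -0.29 to 0.18) and -0.22 with S2sh7 (interval -0.45 to 0.01), and their hairpin gaps differed by -0.16 (interval -0.49 to 0.16). Only 11 of 24 H1299 arrays had SPX over log2 5. The gene passed the filter through its shLuc and A549 levels.

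The second probe set of each gene gave smaller gaps in H1299. On 205629_s_at CRH read a mean of log2 4.83 (SD 0.08) with shLuc and GFP and 6.40 (SD 0.19) with S2sh7 and GFP, a gap of 1.56, and the gaps with WT, BRD and ATPdead were 0.80, 1.01 and 1.05. On 221067_s_at no H1299 array had SPX over log2 4.68, and the gaps were -0.10, -0.30, -0.20 and -0.37 with GFP, WT, BRD and ATPdead. The difference of BRD and ATPdead from GFP with S2sh7 changed sign on this probe set (-0.068 and -0.32), so the order of the SPX levels below log2 5 rests on 229778_at.

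**Figure D2:**
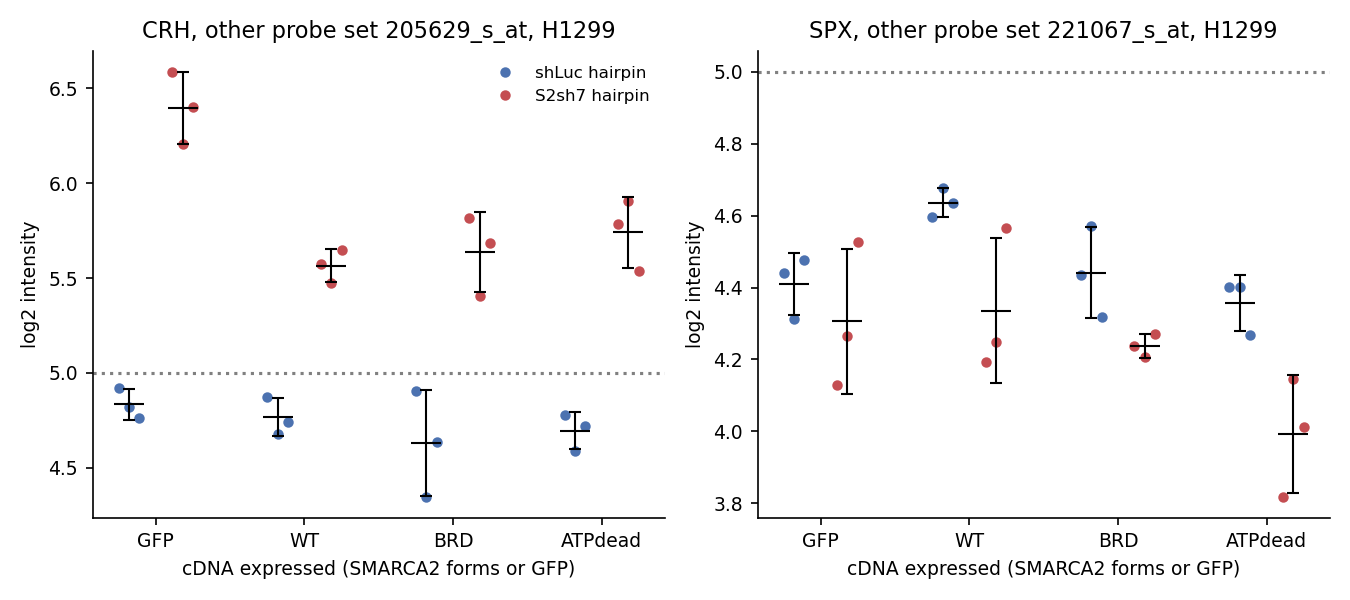
log2 intensity of the second probe set of CRH and of SPX on each H1299 array (points; blue shLuc, red S2sh7), with mean and SD (bars, n = 3) and a dotted line at log2 5. CRH with S2sh7 again lies above shLuc in each line, and all SPX arrays lie below log2 5, with hairpin groups that overlap only for GFP.

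In A549, SPX was above the filter level on 7 of 8 arrays, and it fell with S2sh7 most in the GFP and ATPdead lines. On 229778_at the shLuc arrays read log2 9.10 with GFP, 8.99 with WT, 8.88 with BRD and 8.82 with ATPdead SMARCA4. With S2sh7 they read 5.57, 7.47, 7.70 and 4.95 in the same order. In intensity SPX went from 550 to 47.6 with GFP and from 451 to 31.0 with ATPdead, which left 8.66% and 6.87%. With WT it went from 508 to 178 and with BRD from 472 to 208, which left 35.0% and 44.1%. All 4 S2sh7 arrays lay below all 4 shLuc arrays, and the share of all genes separated in this way is not given here.

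Across the 4 A549 lines the additive fit of cDNA and hairpin gave SPX a difference of -2.52 log2 (SE 0.52, limma adjusted p = 0.0326, lower in 4 of 4 pairs), in a contrast that called 21.1% of genes, 12% higher and 9.06% lower. The pair differences were -3.53, -1.51, -1.18 and -3.86, and their unequal size enters the SE. The call was lost when 1 array of the GFP pair (-2.19, adjusted p = 0.113), of the WT pair (-2.86, adjusted p = 0.0646) or of the ATPdead pair (-2.08, adjusted p = 0.114) was left out, and the direction was kept. On 221067_s_at, which was bright in A549, the pair differences were -1.55, -0.86, -0.82 and -1.38, with the same split between lines. The neighbouring gene GYS2, which overlaps SPX in the RefSeq gene table, did not pass log2 4.44 on any array.

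**Figure D3:**
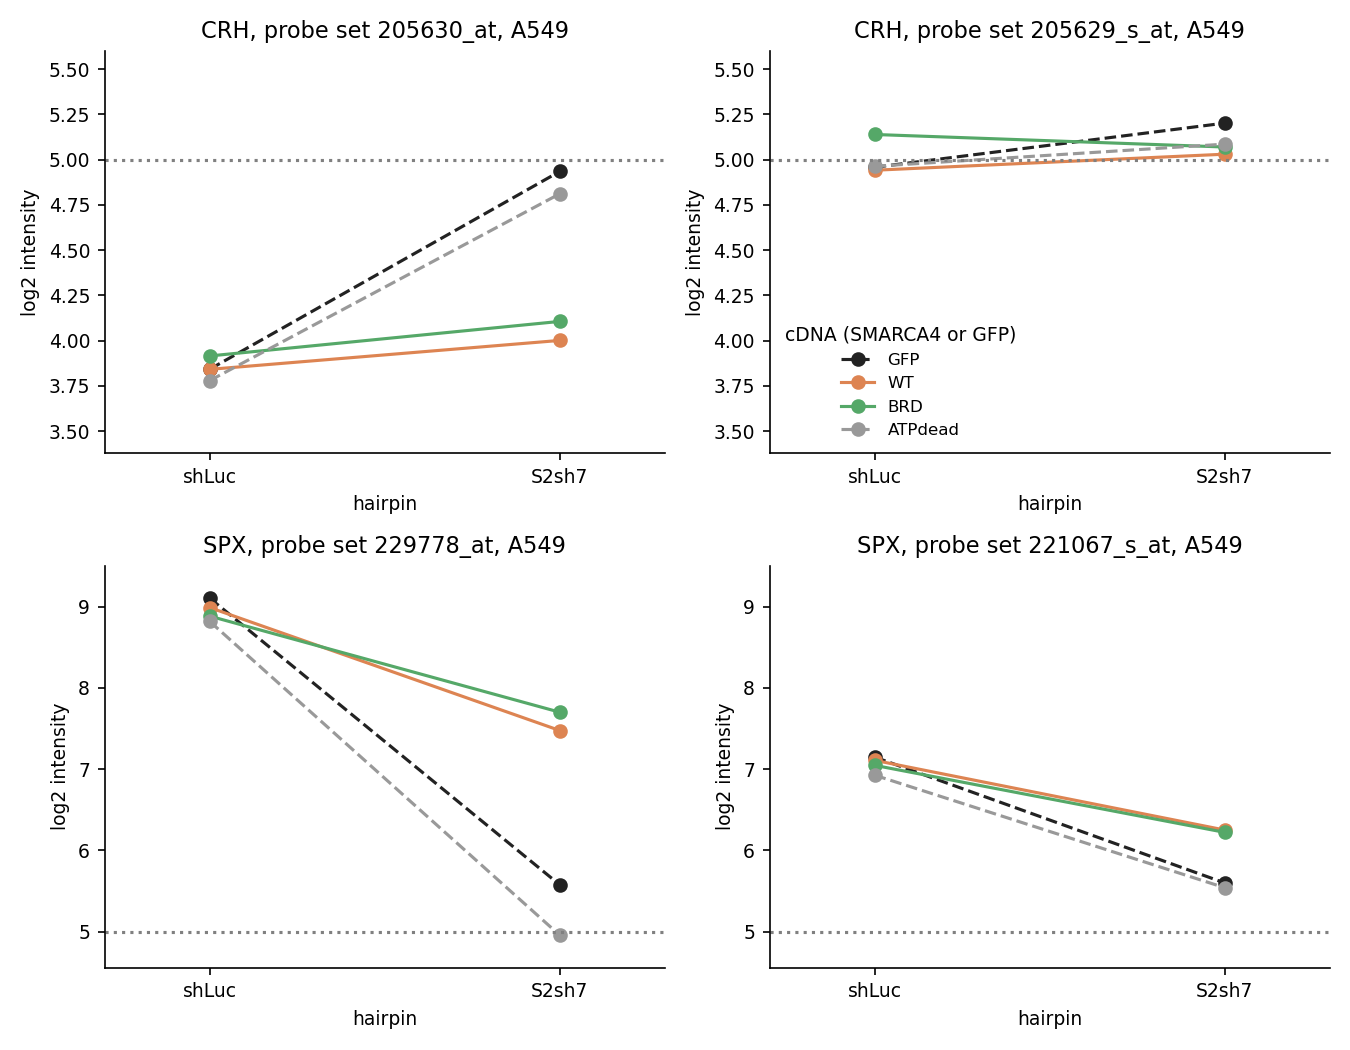
log2 intensity of both probe sets of CRH (top) and SPX (bottom) in A549, 1 array per point, with lines joining the shLuc and S2sh7 arrays of each cDNA (dashed for GFP and ATPdead) and a dotted line at log2 5. On 229778_at SPX falls to 5.57 and 4.95 in the GFP and ATPdead lines and to 7.47 and 7.70 in the WT and BRD lines.

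CRH in A549 was dim on 205630_at. None of the 8 arrays passed log2 5, and the gene passed the filter only because of its H1299 levels. The shLuc arrays read log2 3.84, 3.84, 3.91 and 3.78 with GFP, WT, BRD and ATPdead, and the S2sh7 arrays 4.93, 4.00, 4.11 and 4.81. The pair differences were 1.09, 0.16, 0.19 and 1.03. The additive fit gave 0.62 (SE 0.20). It is given with no test, since differences between readings under the filter level are not well measured. On 205629_s_at the pair differences were 0.24, 0.09, -0.07 and 0.12.

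In both genes the A549 pairs fell into lines given SMARCA4 not labelled ATPase dead (WT, BRD) and the other lines (GFP, ATPdead). This grouping follows the labels but was chosen after the values had been seen. Fitted that way, SPX fell by 3.70 log2 in the GFP and ATPdead lines (log2 difference -3.70, SE 0.19). In the WT and BRD lines it fell by 1.35 (-1.35, SE 0.19). The difference of the falls was 2.35 (SE 0.27). These SPX values are a description, since the grouping was chosen with them in view and different cDNA lines serve as replicates. For CRH, with all 8 arrays under the filter level, the gaps of 1.06 in the GFP and ATPdead lines and 0.18 in the WT and BRD lines, a difference of -0.89 (SE 0.10), are given with no test.

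The hairpin effect was called for 49.8% of genes in the GFP and ATPdead lines (27% higher, 22.9% lower) and for 21.3% in the WT and BRD lines (12.1% higher, 9.28% lower). The difference was called for 23.9% of genes, 12% higher and 11.9% lower, so a difference in either direction was common in A549. These counts do not separate a weaker hairpin effect in the WT and BRD lines from a stronger one. On 205629_s_at the CRH difference was -0.17, and on 221067_s_at the SPX difference was 0.63. Each arm of this fit rests on 2 arrays per hairpin. A SMARCA4 probe set that rose with the cDNAs, 212520_s_at, read log2 7.88, 7.91 and 7.24 with S2sh7 and WT, BRD and ATPdead, so the ATPdead line also had the lowest reading of the 3. SMARCA2 RNA on 206542_s_at was alike in all 4 S2sh7 lines, as given above. The part of cDNA level in these differences was not tested. Beside them, the summed neuroendocrine markers of A549 (8 genes) ran from 491 to 622 with shLuc and from 273 to 382 with S2sh7. Of the 6 tested, only DDC was called there (-2.31, limma adjusted p = 0.033; the median was 0.04, with CHGA at 0.45 and SYP at 0.07). The epithelial sum (6 genes) ran from 28061 to 31963 with shLuc and from 19503 to 20147 with S2sh7. In H1299 the neuroendocrine sums overlapped, at 185 to 220 and 191 to 217, and the epithelial sums did not, at 9334 to 10031 with shLuc and 6412 to 7626 with S2sh7. The keratin genes KRT7 (-1.30), KRT8 (-0.81) and KRT18 (-0.56) were called lower in H1299 with GFP, beside the CRH and SPX gaps. The part of these markers in the results was not tested.

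For SPX, effects of the SMARCA4 cDNAs averaged over both hairpins were not called in A549. WT, BRD and ATPdead against GFP gave SPX 0.89, 0.95 and -0.45 (limma adjusted p = 0.684, 0.588 and 0.99996). They gave CRH -0.47, -0.38 and -0.09, with no test, since its A549 arrays were under the filter level. In the limma fit these contrasts called 0 of 14695 genes each (0%), with 543, 803 and 281 at an unadjusted p under 0.05.

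**Figure D4:**
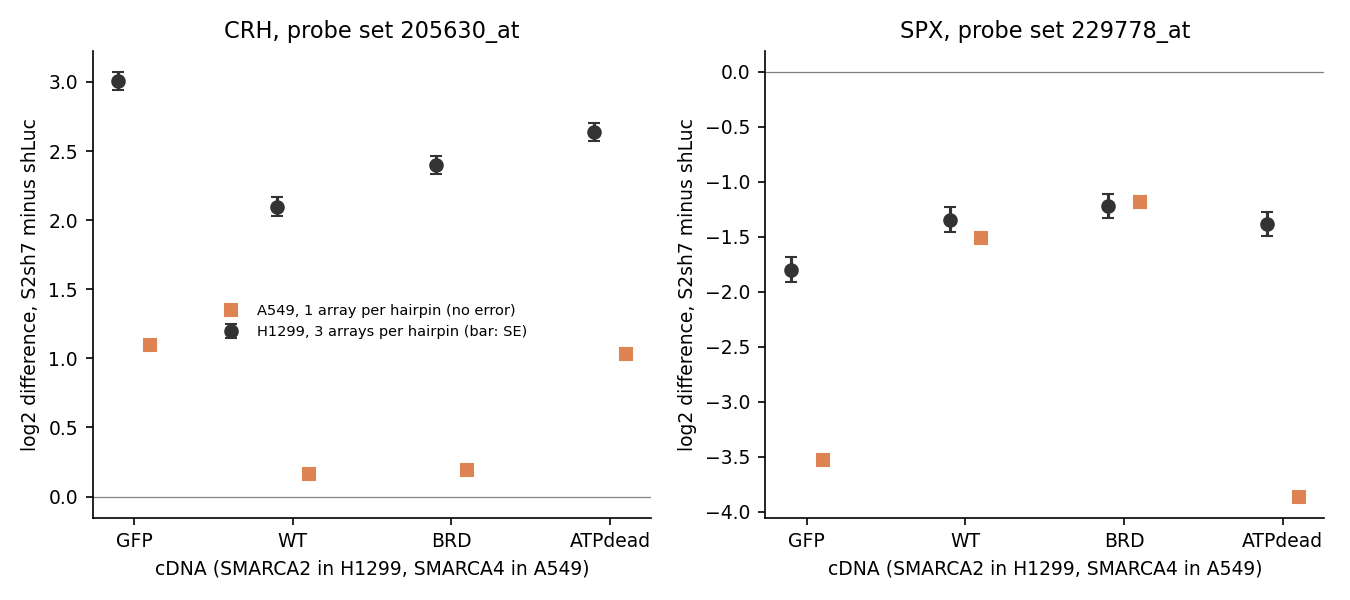
S2sh7 minus shLuc, in log2, for the main probe sets of CRH and SPX by cDNA, in H1299 (circles, bars SE from the fit, n = 3 arrays per hairpin) and A549 (squares, 1 array per hairpin, no error). CRH lies above 0 and SPX below 0 for every cDNA in both lines, and within A549 the WT and BRD values lie nearer 0 than the GFP and ATPdead values.

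Apart from GALR3, the receptors and binding partners of the peptides showed little signal. CRHR2 and the CRH-binding protein gene CRHBP stayed below log2 5 on all arrays, as did GALR1, GALR2 and the galanin-like peptide gene GALP, and the highest POMC array read 5.04. CRHR1 reached at most 5.13 in H1299 and 5.46 in A549, and its gap with GFP was 0.10 (limma adjusted p = 0.596). GALR3 read higher, up to 6.85 in H1299, with a gap of 0.13 (adjusted p = 0.215). The related ligands UCN (-0.14), UCN2 (-0.08) and UCN3 (0.09), and MC2R, the receptor for corticotropin (-0.03), were not called either.

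Of 7 tested genes of the CRH system, 1 rose and 1 fell with S2sh7 and GFP in H1299 and 5 were not called (median -0.03, against 0.01 over all genes tested; 29.7% of genes were called there). The glucocorticoid-induced chaperone gene FKBP5 rose by 0.17 (SE 0.029, adjusted p = 0.000198) and the glucocorticoid receptor gene NR3C1 fell by 0.12 (log2 difference -0.12, adjusted p = 0.00793). In A549 NR3C1 rose by 0.33 (adjusted p = 0.0262). Of 4 tested relatives of spexin, galanin itself, GAL, fell by 0.38 (log2 difference -0.38, adjusted p = 0.00213) and the kisspeptin receptor gene KISS1R rose by 0.28 (adjusted p = 0.0197, below log2 5 throughout H1299), with KISS1 at -0.06. None of these 4 was called in A549, where at an unadjusted p under 0.05 there were none as well.

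Genes that process and store peptides moved in both directions. Of 17 tested, 4 rose, 4 fell and 9 were not called in H1299 with GFP (median 0.06), where 29.7% of all genes were called. The rises include PCSK5 (0.31), which stayed below log2 5 throughout H1299. The granule peptide gene VGF rose by 0.48 (limma adjusted p = 1.11e-07), and the membrane fusion gene STX1A (-0.63), the cyclase QPCT (-0.56) and the calcium sensor SYT1 (-0.55) fell. PAM, the amidating enzyme, gave 0.07 (adjusted p = 0.09) and the carboxypeptidase CPE 0.06 (adjusted p = 0.282). Of 19 tested precursors of other peptides, 3 rose, 4 fell and 12 were not called. ADM, adrenomedullin, rose by 0.88 (adjusted p = 5.62e-11). The stanniocalcins STC1 (-0.80) and STC2 (-0.41) and the relaxin gene RLN2 (-0.41) fell, the last below log2 5 throughout H1299. The rises include CCK (0.23), which was also below log2 5 throughout H1299. None of these gaps came near the CRH gap of 3.01. CRH was chosen on the size of its change, so this is no separate result.

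Of 21 tested genes of cAMP and CREB signalling, which is known to drive CRH transcription, 5 rose and 4 fell in H1299 with GFP. The other 12 were not called (median -0.02). The rises include PDE7B (0.32), below log2 5 throughout H1299. The immediate early gene FOS fell (-0.75, limma adjusted p = 4.4e-07), as did the kinase subunit PRKACB (-0.34) and REST, a repressor of neuronal genes (-0.24, adjusted p = 0.000343), while its corepressor RCOR1 rose by 0.16 (adjusted p = 0.000162). CREB1 gave -0.09 (adjusted p = 0.208). Over the 5 lists, 28 of 68 tested genes (41.2%) were called with GFP, 21 (30.9%) with WT, 18 (26.5%) with BRD and 24 (35.3%) with ATPdead. All genes together gave 29.7%, 26.5%, 23.7% and 28.4%. With GFP the called list genes include PCSK5, CCK, PDE7B, KISS1R and RLN2, which were below log2 5 throughout H1299. The same filter, over the arrays of both lines, applied to all genes.

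In A549, 16 of the 68 (23.5%) were called, 10 higher and 6 lower, against 21.1% of all genes. Without 1 array of the GFP, WT, BRD or ATPdead pair the 16 became 1, 7, 11 and 0. Such a fit has fewer residual degrees of freedom, and the share of all genes called in it is not given here. The loss can therefore not be read as a result about these genes. Those named above that were called there were VGF (0.27), STC1 (-0.46), STC2 (0.70), RLN2 (-1.02), PRKACB (-0.73), RCOR1 (0.48) and NR3C1. STC2 was thus lower in H1299 and higher in A549 with S2sh7, and NR3C1 likewise, but the difference between lines was not tested.

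**Figure D5:**
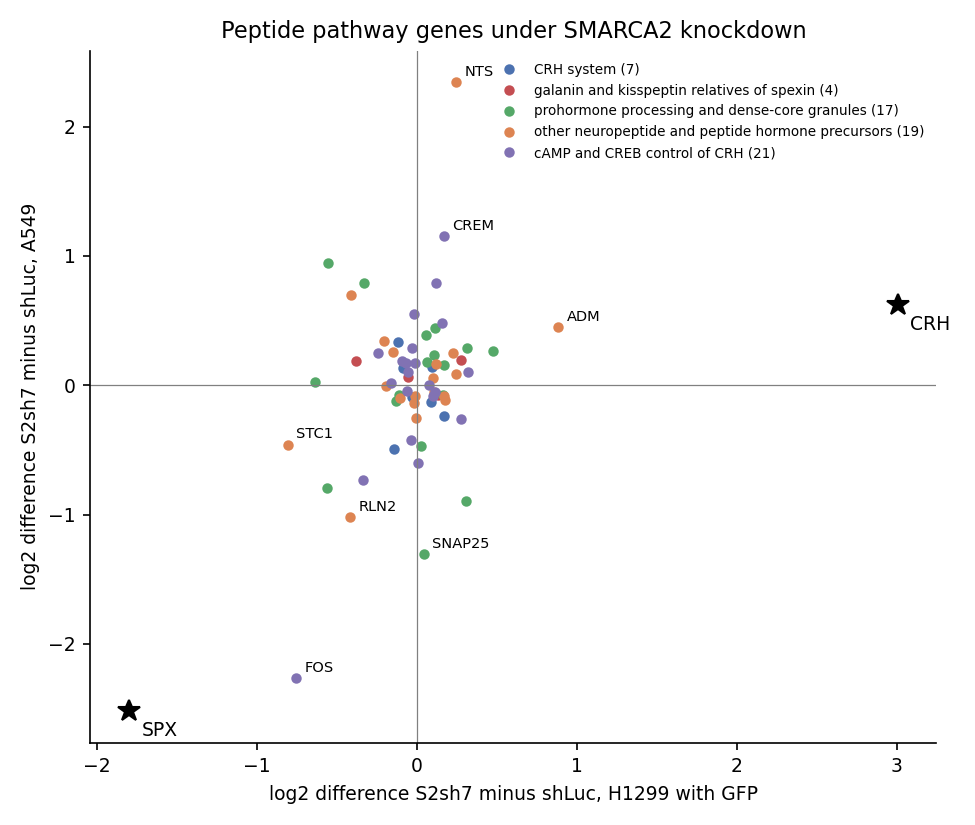
S2sh7 minus shLuc, in log2, in H1299 with GFP (x axis) and in A549 over 4 cDNAs (y axis) for 68 tested genes of 5 lists (colours) and for CRH and SPX (stars). CRH (3.01) and SPX (-1.80) lie outside the x range of the listed genes, which runs from STC1 at -0.80 to ADM at 0.88. CRH and SPX were chosen on the size of their H1299 change, so this is no separate result.

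The genes whose H1299 pattern was most like CRH, by Pearson r over the 8 group means, were ASPH, a hydroxylase (r = 0.997), the MAP kinase phosphatase DUSP10 (0.995), the purine synthesis enzyme ATIC (0.993), BRI3BP (0.993) and AIDA (0.993). For SPX they were the annexin ANXA3 (0.998), GADD45B (0.995), the unfolded protein response factor XBP1 (0.993), TUFT1 (0.992) and AJUBA (0.991). These points share the hairpin split, and 440 genes exceeded 0.95 with CRH and 417 with SPX; CRH and SPX had r = -0.97 with each other. In A549, ASPH was higher with S2sh7 (0.37, limma adjusted p = 0.0192) and DUSP10 lower (-0.98, adjusted p = 0.00839), against 1.32 in H1299 with GFP. ANXA3 (-0.77, adjusted p = 0.0129), GADD45B (-0.31, adjusted p = 0.0333) and XBP1 (-1.22, adjusted p = 0.0496) were lower in A549 as SPX was, and the other 5 were not called.

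In H1299 the tested neighbours on the chromosome changed by less than CRH and SPX. The 2 genes were chosen on the size of their change there, so this is no separate result. Next to CRH, TRIM55 was below log2 5 on all arrays, DNAJC5B (0.27, limma adjusted p = 0.177) and ADHFE1 (0.02, adjusted p = 0.917) were not called in H1299 with GFP, and the ribosome assembly gene RRS1 rose by 0.19 (adjusted p = 8.2e-05) and, in A549, by 0.63 (adjusted p = 0.028). Next to SPX, the Golgi transport gene GOLT1B rose by 0.43 (adjusted p = 2.98e-10) in H1299 with GFP, opposite to SPX, and gave -0.004 in A549 (adjusted p = 0.958). The helicase RECQL fell by 0.16 (log2 difference -0.16, adjusted p = 0.00033) and LDHB gave -0.02 (adjusted p = 0.519).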

How the data were processed

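The authors deposited 1 RMA intensity for each probe set, not on a log scale, for 24 H1299 and 8 A549 arrays; the submitters' processing notes name RMA and limma, with versions and a genome build not given in the sources used here. RNA was labelled by 3' in vitro transcription, per the labels' protocols. log2 was taken with no pseudocount. Probe sets were named from the platform annotation (41097 with 1 symbol, 1801 with several, 11777 with none). For each gene the probe set with the highest mean was kept, and 14695 genes (74.3%) were tested, those above log2 5 on 3 or more arrays.

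With limma 3.58.1 (in R 4.3.3), the H1299 model had 1 mean per group (16 residual degrees of freedom) and the A549 model additive cDNA and hairpin terms (3), with Benjamini-Hochberg adjustment over all tested genes and calls at 0.05. The fits were tested on simulated data. Planned tests of CRH and SPX within H1299 are given as differences without p-values, since the same arrays chose the genes. Those of CRH in A549 are given likewise, since its arrays there were under the filter level. The median residual SD was 0.0703 log2 in H1299 and 0.108 in A549; the number of arrays limits the precision. Members, gene lists and tests were chosen with earlier results of these data known. Named genes were all members of the CRH and spexin lists, up to 4 called genes of smallest adjusted p in each other list, the 5 most alike, and the 2 nearest protein-coding genes on each side. List genes called with GFP though below log2 5 throughout H1299 were named as well. Alternatives covered probe sets, filters, scaling, variance model, arrays fitted, a replicate block and left-out arrays. PCSK1, PCSK2, ATF1 and PTHLH were not analysed here. Figures used Python 3.11.15 and matplotlib 3.10.9.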

Additional observations from a re-analysis of the deposited data

Results flagged for a closer look

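In A549 the hairpin gap of SPX differed by 2.35 log2 between the lines with WT or BRD SMARCA4 and those with GFP or ATPdead. That of CRH differed by -0.89. For CRH all 8 arrays read under log2 5 on 205630_at, and 205629_s_at gave -0.17. Both came from a fit of the difference itself, with 2 arrays per arm and hairpin. The grouping of lines was chosen after the values had been seen, so no p is given for either.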

How the results depend on the processing

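Of 682 alternative values for 45 results, 637 kept their direction and their side of the threshold, or moved by less than the spread between replicates. The choice of probe set made most of the others, and the cause was not tested. The filters, variance model, replicate block and arrays fitted changed no CRH or SPX estimate, only its SE and p-value. In the additive A549 fit, leaving out either array of a pair gave the same hairpin effect. The count of values kept therefore includes many that could not differ or that repeat each other. For the H1299 hairpin gaps with GFP, WT, BRD and ATPdead, the mean of all probe sets gave CRH 2.28, 1.45, 1.70 and 1.84 and 205629_s_at alone 1.56, 0.80, 1.01 and 1.05. Against GFP with shLuc, the mean gave CRH -0.25 with WT and -0.37 with BRD, and 205629_s_at -0.069 with WT, -0.20 with BRD and -0.14 with ATPdead. With S2sh7 the mean gave -1.09 with WT and -0.95 with BRD, and 205629_s_at -0.83 and -0.76. ATPdead minus WT with shLuc turned to -0.070 on 205629_s_at. ATPdead minus BRD with S2sh7 was 0.45 on the arrays compared alone and 0.11 on 205629_s_at. In A549, 205629_s_at gave 0.18 in the GFP and ATPdead lines and a difference of -0.17.

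For SPX, the mean of all probe sets gave hairpin gaps of -0.95 with GFP and -0.82 with WT, and 221067_s_at -0.10 with GFP, -0.30 with WT and -0.20 with BRD. WT minus GFP with shLuc was 0.23 on 221067_s_at. With S2sh7, the mean and 221067_s_at gave 0.49 and 0.030 for WT minus GFP, 0.22 and -0.068 for BRD minus GFP, and -0.016 and -0.32 for ATPdead minus GFP. On 221067_s_at the hairpin gaps with WT, BRD and ATPdead differed from that with GFP by -0.20, -0.10 and -0.26, opposite in sign to 229778_at. Leaving out 1 array at a time gave SPX in A549 -2.97 to -2.08 and 0 to 11 called list genes, with the share of all genes not given.

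The replicate numbers did not pair the samples: the deviations of same-numbered arrays had a mean correlation of -0.0051 (-0.29 to 0.28 over 84 pairs). With a replicate block the CRH gap with GFP was 3.01 (SE 0.069), and 4260 genes were called there against 4359 without it. With 1 array per A549 group, precision in that line is low, and SPX with S2sh7 in H1299 was below the filter level.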

Other observations

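Of the peptide pathway genes called in A549, 4 are described here; they were singled out after their values had been seen. The neurotensin precursor gene NTS rose with S2sh7 by 2.34 log2 (SE 0.28, limma adjusted p = 0.0147, higher in 4 of 4 pairs), with pair differences of 2.90 with GFP, 1.56 with WT, 1.88 with BRD and 3.03 with ATPdead SMARCA4. In H1299, NTS did not pass log2 3.83 and PCSK5 did not pass 3.96, while CREM (up to 7.96) and SNAP25 (up to 7.19) were expressed; with GFP, CREM rose there by 0.17 (adjusted p = 0.00318) and SNAP25 gave 0.05 (adjusted p = 0.633). CREM, which codes for activating and repressing cAMP-responsive factors, rose by 1.15 (adjusted p = 0.0178), with pair differences of 1.56, 0.76, 0.85 and 1.43. The convertase PCSK5 fell (log2 difference -0.90, adjusted p = 0.0228), with -1.31, -0.49, -0.71 and -1.08, and the membrane fusion gene SNAP25 fell (-1.30, adjusted p = 0.00839), with -1.63, -1.08, -1.23 and -1.27. Between the WT and BRD lines and the GFP and ATPdead lines, the gaps differed by -1.25 for NTS, -0.69 for CREM, 0.60 for PCSK5 and 0.30 for SNAP25. These differences are a description, since the split was chosen after the values had been seen and different cDNA lines serve as replicates. The split called 23.9% of all genes.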
